A study of Mus musculus with 4 samples.

Results

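The genes described here are 8 genes of iron storage, iron transport, heme breakdown and lipid peroxide removal: Ftl1, Fth1, Hmox1, Tfrc, Slc40a1, Slc11a1, Slc11a2 and Gpx4. They were chosen by symbol, with their measured values in these same libraries already known, and make up 8 of the 45773 genes in the tables. Of the 8 genes, 7 averaged 1 TPM or more (a relative level already divided by transcript length) over the 4 libraries and are called measured, as were 12570 genes in all. Slc40a1 did not reach that level. Because the choice rested on these values, all differences are descriptions, and with 1 library per group there was no replicate error and no test.

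The study profiled CD8 T cells taken from mouse tumours by SMART-seq, in 2 separate experiments of 2 libraries each. In the first, T cells of Pmel-I mice, which carry a transgenic receptor for the gp100 antigen, were transduced with Klf4 or with MigRI, the vector control. They were given intravenously 7 days after 300000 MC38-gp100 cells (a mouse colon carcinoma line labelled as carrying gp100) had been inoculated, and GFP+ CD8 T cells were collected from the tumours on day 15. The hosts were Rag2 KO mice, which form no T or B cells of their own and keep their myeloid cells. In the second experiment, 300000 MC38 cells were inoculated into mice labelled Klf4 cKO or Control (WT), and PD1+ CD8+ cells were collected on day 14. Each library came from 10000 to 20000 cells. The labels name neither the Cre line nor the deleted part of Klf4, and give no age, sex or number of mice. Hosts, tumour line, T cells and sort differed between the experiments, so differences are given within an experiment.

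Ferritin is a hollow shell of heavy chains (Fth1) and light chains (Ftl1) that stores iron. The heavy chain oxidises ferrous iron so that it can enter, and the light chain helps the mineral core to form. The transferrin receptor (Tfrc) brings in transferrin-bound iron, DMT1 (Slc11a2) carries ferrous iron out of the endosome into the cytosol, NRAMP1 (Slc11a1) moves metal ions out of the phagosome of macrophages and other phagocytes, and ferroportin (Slc40a1) is the exporter. Heme oxygenase-1 (Hmox1) splits heme into iron, carbon monoxide and biliverdin, and in tumours it is known from macrophages. Gpx4 reduces lipid peroxides and thereby holds back ferroptosis, the iron-dependent form of cell death, to which T cells lacking Gpx4 are prone.

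Several of these mRNAs carry iron-responsive elements, short hairpins that bind the iron regulatory proteins when the cell is low in iron. Bound in a 5′ UTR they hold back translation, and bound in the 3′ UTR of Tfrc they keep the mRNA from being degraded. The elements are shown because, among the genes in which the search found them, they set apart the mRNA whose level follows iron directly (Tfrc). The mRNAs of the ferritin chains and ferroportin are regulated mainly at translation, which TPM does not measure. The elements were sought in the GENCODE M21 transcripts (GRCm38, the assembly that mm10 names). The search asked for a C, then 5 bases, a loop of 6 bases and 5 bases all able to pair with the first 5. Each is printed 5′ to 3′ on the strand of the gene with 5 flanking bases on each side, and the capitals mark the loop.
Ftl1, 5′ UTR, chr7:45459780-45459806, minus strand: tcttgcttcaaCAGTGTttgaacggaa
Fth1, 5′ UTR, chr19:9982733-9982759, plus strand: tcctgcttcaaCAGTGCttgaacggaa
Slc40a1, 5′ UTR, chr1:45925466-45925492, minus strand: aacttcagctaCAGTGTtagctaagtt
Tfrc, 3′ UTR, chr16:32631220-32631246, plus strand: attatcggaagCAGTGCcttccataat
Tfrc, 3′ UTR, chr16:32631599-32631625, plus strand: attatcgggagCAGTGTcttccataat
Tfrc, 3′ UTR, chr16:32631664-32631690, plus strand: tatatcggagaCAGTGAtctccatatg
Tfrc, 3′ UTR, chr16:32631711-32631737, plus strand: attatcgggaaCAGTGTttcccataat

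Each of the 3 genes with an element in the 5′ UTR had 1 match, with the loop starting at base 90 of the Ftl1 transcript, base 99 of Fth1 and base 102 of Slc40a1. Tfrc had 4 matches, at bases 3327, 3706, 3771 and 3818 of its 4890-base transcript. The same letters with a paired stem occurred in the 5′ UTR of 31 of 20580 genes (0.151%) and in the 3′ UTR of 129 of 20978 genes (0.615%). No match was found in the UTRs of Hmox1, Slc11a1, Slc11a2 or Gpx4, which says only that these letters with a fully paired stem are not there. A hairpin with an imperfectly paired stem would have been missed, so the search cannot show that these genes lack an element. A match is a description of sequence and not evidence of binding in these cells.

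Before the members, the libraries themselves were checked. Klf4 stood at 26.05 TPM in the Klf4 library and 8.69 TPM in the MigRI library, and at 9.28 TPM in the Klf4 cKO-labelled library and 7.52 TPM in the Control (WT) library. The targeted gene was thus not lower in the Klf4 cKO-labelled library. Gene-level values do not show whether reads lay inside the deleted part, so an intact and a deleted gene cannot be told apart, and that library is called by its label throughout. The 10 CD8 T cell markers were above 0 in every library, and their summed level was 5813 TPM in the Klf4 library, 24626 TPM in MigRI, 18556 TPM in the Klf4 cKO-labelled library and 7972 TPM in Control (WT). The 15 macrophage and monocyte markers were also above 0 in every library, and the 14 measured ones summed to 4932, 1008, 1368 and 565 TPM in the same order. The median over measured genes was 0.79 higher on the log2(TPM + 1) scale in Klf4 than in MigRI and 0.74 higher in the Klf4 cKO-labelled library than in Control (WT). Differences are therefore given as deposited and also relative to that median, as the difference less the median. A difference of at least 1 log2 (2-fold) is called higher or lower.

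**Figure D1:**
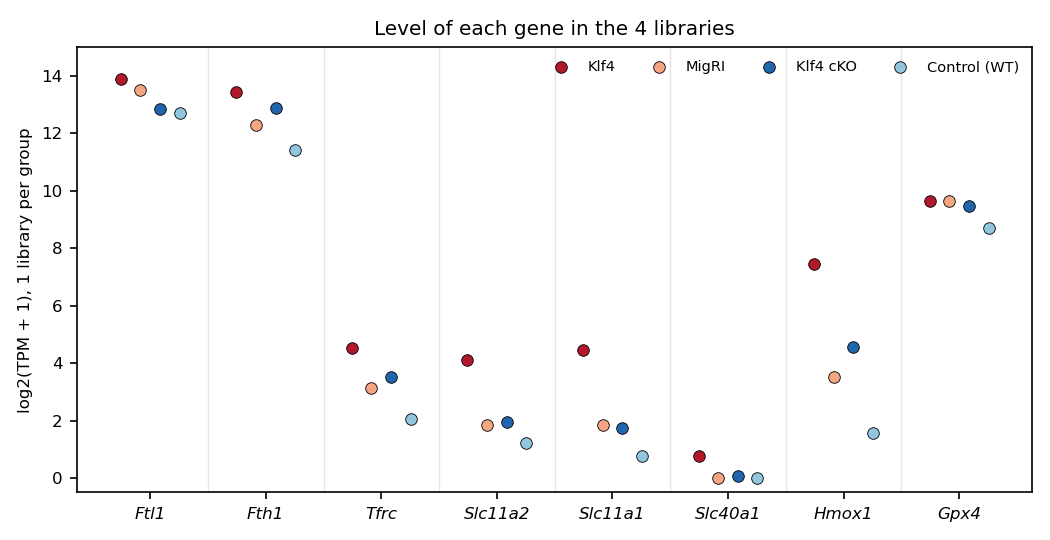
Level of each of the 8 genes as log2(TPM + 1) (vertical axis), 1 point per library (Klf4, MigRI, Klf4 cKO as labelled, Control (WT)). The ferritin chains stand highest of the 8 genes in every library, Slc40a1 lies at or near 0, and Hmox1 spreads most, with 174 TPM in Klf4 and 1.97 TPM in Control (WT).

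The ferritin chains were among the most abundant mRNAs of every library. Ftl1 (ENSMUSG00000050708.16, chr7:45457944-45459884, minus strand) had 15187 TPM in Klf4 and 11631 TPM in MigRI, and 7379 TPM in the Klf4 cKO-labelled library and 6662 TPM in Control (WT). Ranked by TPM among all genes, it was 1st in Klf4 and 4th in MigRI, and 12th in the Klf4 cKO-labelled library and 14th in Control (WT). Ftl1 alone took 1.52% of all TPM in Klf4 and 1.16% in MigRI, and 0.738% in the Klf4 cKO-labelled library and 0.666% in Control (WT). As deposited, the light chain differed by less than 2-fold within either experiment. Its log2(TPM + 1) difference was 0.38 for Klf4 over MigRI and 0.15 for the Klf4 cKO-labelled library over Control (WT), and the relative differences were on the other side of 0, at -0.41 and -0.59. Other scales called Ftl1 in opposite directions. For Klf4 over MigRI it was higher by 2.12 under quantile normalization and by 2.40 against Trac, Trbc1 and Trbc2, the constant regions of the T cell receptor, and at -2.06 against the median of the macrophage markers. For the Klf4 cKO-labelled library over Control (WT) it was at -1.61 against Trac, Trbc1 and Trbc2, at -1.49 against the macrophage markers and at -1.04 against the median gene of at least 10 TPM. Neither direction of Ftl1 therefore holds over the scales tried.

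The heavy chain differed more. Fth1 (ENSMUSG00000024661.7, chr19:9980598-9985098, plus strand) had 11192 TPM in Klf4 and 5032 TPM in MigRI, and 7457 TPM in the Klf4 cKO-labelled library and 2730.5 TPM in Control (WT). It ranked 2nd in Klf4 and 13th in MigRI, and 11th in the Klf4 cKO-labelled library and 55th in Control (WT). Fth1 was 2.22-fold higher in Klf4 than in MigRI, a log2(TPM + 1) difference of 1.15, and 2.73-fold higher in the Klf4 cKO-labelled library than in Control (WT), a difference of 1.45. Relative to the median gene these were 0.36 and 0.71, which are not called. Against the receptor genes Trac, Trbc1 and Trbc2 the direction within the second experiment turned, to -0.31, and against the median of the macrophage markers it turned in both, to -1.30 and -0.18.

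The balance of the 2 chains can be read without any scale between libraries, because both sit in the same library. There were 1.36 Ftl1 TPM for each Fth1 TPM in Klf4 and 2.31 in MigRI, and 0.990 in the Klf4 cKO-labelled library and 2.44 in Control (WT). The light chain was thus in smaller excess in Klf4 than in MigRI, and about level with the heavy chain in the Klf4 cKO-labelled library, unlike in Control (WT). On the log2 scale the ratio was -0.77 for Klf4 over MigRI and -1.30 for the Klf4 cKO-labelled library over Control (WT). Quantile normalization, which gives the top-ranked genes of all libraries the same values, moved the Klf4 over MigRI change to 0.16. Heavy chain made up 42.4% of the 2 chains' TPM in Klf4 and 30.2% in MigRI, and 50.3% in the Klf4 cKO-labelled library and 29.1% in Control (WT). The 2 chains together took 2.64% of all TPM in Klf4 and 1.67% in MigRI, and 1.48% in the Klf4 cKO-labelled library and 0.939% in Control (WT), so that their sum was 1.58-fold higher in both comparisons.

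Light chain values carry an uncertainty that heavy chain values mostly do not. Of the 919 stretches of 50 bases in the Ftl1 transcript, 725 (78.9%) also occur in transcripts of other genes, mainly processed copies, against 58 of 880 (6.59%) for Fth1. The tables list 5 such copies of the light chain. Ftl1-ps1, the copy with most shared sequence, had 1323 TPM in Klf4, 957 TPM in MigRI, 644 TPM in the Klf4 cKO-labelled library and 611 TPM in Control (WT). Reads of Ftl1 and of its copies cannot be told apart over these stretches. The 5 copies together held 13.5% of the light chain total in Klf4 and 13.6% in MigRI, and 13.7% in the Klf4 cKO-labelled library and 12.2% in Control (WT). With all copies added to both chains, the ratio was 1.57 in Klf4 and 2.68 in MigRI, and 1.15 in the Klf4 cKO-labelled library and 2.78 in Control (WT), and its log2 change was -0.77 and -1.28.

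**Figure D2:**
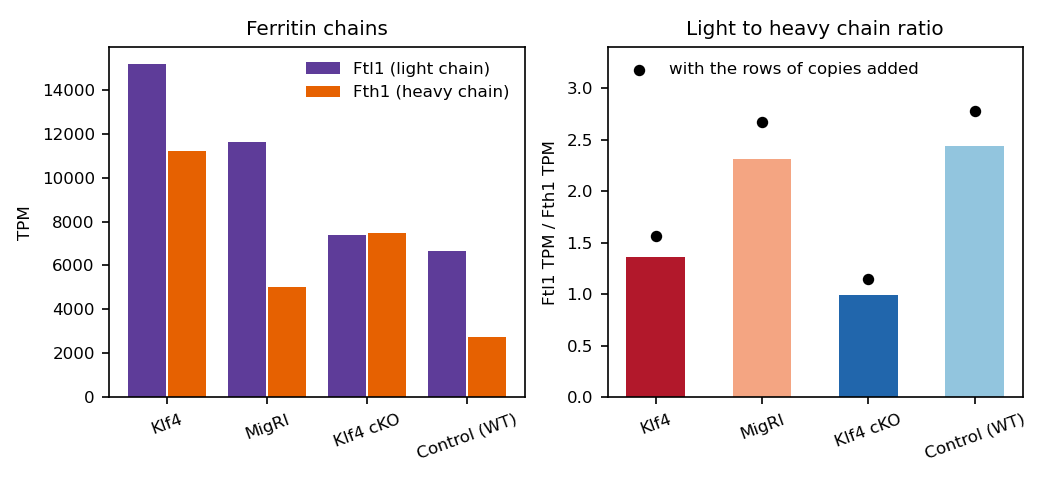
Left, TPM of Ftl1 and Fth1 (bars) in each library. Right, Ftl1 TPM divided by Fth1 TPM (bars), with black points for the ratio after the rows of near-identical copies were added. The ratio is 1.36 in Klf4 and 2.31 in MigRI, and 0.990 in the Klf4 cKO-labelled library and 2.44 in Control (WT).

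Iron entry was described by the transferrin receptor and DMT1. Tfrc (ENSMUSG00000022797.16, chr16:32608920-32632794, plus strand) had 21.8 TPM in Klf4 and 7.68 TPM in MigRI, and 10.3 TPM in the Klf4 cKO-labelled library and 3.19 TPM in Control (WT). It was 2.83-fold higher in Klf4 than in MigRI and 3.24-fold higher in the Klf4 cKO-labelled library than in Control (WT), with log2(TPM + 1) differences of 1.39 and 1.44. The relative differences, 0.60 and 0.70, were under 2-fold. Tfrc and Fth1 were thus both higher in the same library of each experiment as deposited. For Tfrc, too, the direction turned against the macrophage marker median (-1.06 and -0.20) and, in the second experiment, against Trac, Trbc1 and Trbc2 (-0.32).

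Slc11a2 (ENSMUSG00000023030.16, chr15:100387898-100425072, minus strand) had 16.3 TPM in Klf4 and 2.61 TPM in MigRI, and 2.84 TPM in the Klf4 cKO-labelled library and 1.31 TPM in Control (WT). The Klf4 library stood apart from the other 3, whose values lay within a few TPM of each other. Slc11a2 was 6.26-fold higher in Klf4 than in MigRI, a log2(TPM + 1) difference of 2.26 and a relative difference of 1.47. In the second experiment the difference was 0.73, and -0.01 relative, neither of which is called. Other settings called it in both directions there, at 1.05 with a pseudocount of 0.1 and at -1.03 against Trac, Trbc1 and Trbc2, and it was at -0.90 against the macrophage markers. The log2(TPM + 1) scale understates the change of genes this low, where the plain ratio was 2.16. Against the macrophage marker median the Klf4 over MigRI difference turned to -0.19.

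NRAMP1 and ferroportin are both best known from macrophages. Slc11a1 (ENSMUSG00000026177.11, chr1:74375195-74386062, plus strand) had 21.1 TPM in Klf4 and 2.57 TPM in MigRI, and 2.32 TPM in the Klf4 cKO-labelled library and 0.705 TPM in Control (WT). It was 8.19-fold higher in Klf4 than in MigRI, a log2(TPM + 1) difference of 2.63 (1.83 relative). In the second experiment the difference was 0.96, just under the 2-fold call, and 0.22 relative, while the plain ratio was 3.28. As for Slc11a2, the log2(TPM + 1) scale understates the change at values this low. Against the macrophage markers the Klf4 over MigRI difference was 0.18, no longer called, and the second was -0.67. Against Trac, Trbc1 and Trbc2 the second was -0.80, while a pseudocount of 0.1 called it higher, at 1.59. Slc40a1 (ENSMUSG00000025993.10, chr1:45908068-45926523, minus strand) had 0.711 TPM in Klf4 and 0.0568 TPM in the Klf4 cKO-labelled library and was listed at 0 in MigRI and in Control (WT). No fold was computed for it, because a value listed at 0 can be a failed estimate and TPM carries no depth.

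Hmox1 showed the largest difference of the 7 measured genes in both comparisons. Hmox1 (ENSMUSG00000005413.8, chr8:75093621-75100589, plus strand) had 174 TPM in Klf4 and 10.6 TPM in MigRI, and 22.6 TPM in the Klf4 cKO-labelled library and 1.97 TPM in Control (WT). Its rank was 1180 in Klf4 and 4760 in MigRI, and 3448 in the Klf4 cKO-labelled library and 8333 in Control (WT). That is 16.5-fold higher in Klf4 than in MigRI and 11.4-fold higher in the Klf4 cKO-labelled library than in Control (WT). The log2(TPM + 1) differences were 3.92 and 2.99, and 3.13 and 2.25 relative to the median gene. None of its 50-base stretches occurs in another gene. It was called higher under all 14 alternatives tried in each comparison. Among these, summing the ferritin chains or Gpx4 with their copies could not change Hmox1. The differences lay between 1.47 and 5.94 for Klf4 over MigRI and between 1.23 and 3.45 for the Klf4 cKO-labelled library over Control (WT).

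Gpx4 (ENSMUSG00000075706.10, chr10:80047166-80056439, plus strand) stood between the ferritin chains and the other members. It had 791 TPM in Klf4 and 796 TPM in MigRI, and 709 TPM in the Klf4 cKO-labelled library and 419 TPM in Control (WT). The Klf4 and MigRI values differed by -0.01 on the log2(TPM + 1) scale, and by -0.80 relative to the median gene. For the Klf4 cKO-labelled library over Control (WT) the difference was 0.76, and 0.02 relative. None of these reached 2-fold. Other scales called Gpx4: for Klf4 over MigRI it was at 2.01 against Trac, Trbc1 and Trbc2, at -1.01 by median of ratios scaling and at -2.46 against the macrophage markers, and in the second comparison it was at -1.002 against Trac, Trbc1 and Trbc2. Of its 946 stretches of 50 bases, 584 (61.7%) are shared with other genes, and the copy Gpx4-ps2 had 253 TPM in Klf4 and 238 TPM in MigRI, and 207 TPM in the Klf4 cKO-labelled library and 121 TPM in Control (WT).

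Counted together, 5 of the 7 measured genes (Fth1, Hmox1, Tfrc, Slc11a1 and Slc11a2) were higher in Klf4 than in MigRI as deposited, where 43.7% of all measured genes were higher. None of the 7 was lower, against 10.3% of all measured genes. Relative to the median gene, 3 were higher (Hmox1, Slc11a1 and Slc11a2; background 21.4%) and 0 lower (background 23.6%). In the second experiment, 3 of the 7 (Fth1, Hmox1 and Tfrc) were higher in the Klf4 cKO-labelled library than in Control (WT) as deposited, where 38.4% of all measured genes were, and 0 were lower, against 6.92%. Relative to the median gene, Hmox1 was the 1 gene higher (background 12.4%) and 0 were lower (background 16.2%). The median difference of the 7 was 1.39 for Klf4 over MigRI and 0.96 for the Klf4 cKO-labelled library over Control (WT), beside 0.79 and 0.74 over all measured genes. As the 8 genes were selected on these values, nothing is read from the counts.

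**Figure D3:**
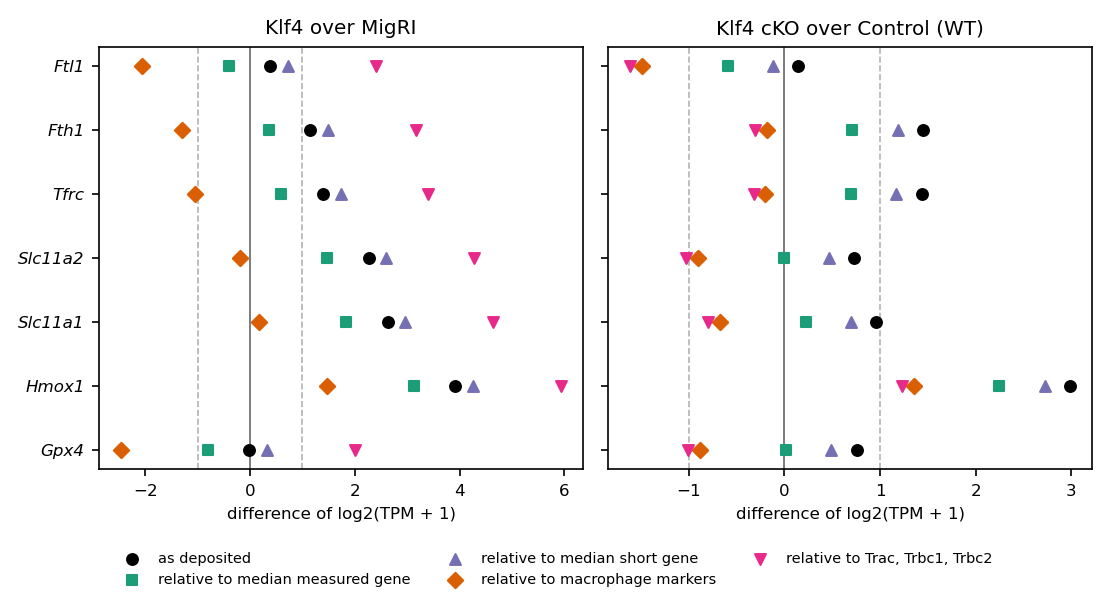
Difference of log2(TPM + 1) of the 7 measured genes in each comparison, as deposited and relative to 4 other scales (symbols); dashed lines mark 2-fold. Hmox1 lies to the right of the 2-fold line under each of the 5 scales in both panels, and Ftl1, Fth1, Tfrc, Slc11a2 and Gpx4 lie left of 0 in both panels when set against the macrophage markers.

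Transcript length moved with the values. In the first comparison, the 1749 measured genes whose longest transcript is under 1000 bases had a median log2(TPM + 1) difference of -0.34, against 1.02 for the 10012 longer ones, and in the second comparison 0.26 against 0.82. The short genes took 21.6% of all TPM in Klf4 and 38.8% in MigRI, and 41.2% in the Klf4 cKO-labelled library and 54.9% in Control (WT). Ftl1, with 968 bases, and Gpx4, with 995, are short genes, whereas the Hmox1 transcript has 1569 bases and that of Tfrc 4890. Fth1 counts among the longer genes by its longest transcript (2062 bases), but its transcript used for the shared stretches has 929 bases. Set against the short genes, Hmox1 differed by 4.26 and 2.72, and Ftl1 by 0.73 and -0.12. The part of length in the differences of the other members was not tested.

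Macrophage and monocyte markers were mostly higher in the same library of each experiment as the members called as deposited. Of 14 measured macrophage and monocyte markers, 12 were higher in Klf4 than in MigRI and 0 lower (median difference 2.45), and 8 were higher in the Klf4 cKO-labelled library than in Control (WT) and 0 lower (median 1.63). Lyz2, the lysozyme of myeloid cells, had 1423 TPM in Klf4 and 344 TPM in MigRI, and 256 TPM in the Klf4 cKO-labelled library and 52.5 TPM in Control (WT). Apoe, a lipid carrier made in quantity by macrophages, had 756, 98.8, 254 and 79.1 TPM in the same order, and the complement subunit C1qb had 723, 129, 243 and 64.5 TPM. All 10 CD8 T cell markers were lower in Klf4 than in MigRI (median -2.07), whereas 8 were higher and 0 lower in the Klf4 cKO-labelled library than in Control (WT) (median 1.75). The receptor constant region Trbc2 had 3718 TPM in Klf4 and 13414 TPM in MigRI, and 4194 TPM in the Klf4 cKO-labelled library and 1258 TPM in Control (WT), Trbc1 had 1344, 5436, 2348 and 694 TPM in that order, and Cd3g had 93.6, 1776, 4578 and 1891 TPM. In these bulk libraries, fewer cells of a type and less RNA per cell cannot be told apart.

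Divided by a macrophage marker of the same library, Hmox1 was still higher in Klf4 than in MigRI and in the Klf4 cKO-labelled library than in Control (WT). There were 0.720 Hmox1 TPM per Cd68 TPM (a lysosomal protein of macrophages) in Klf4 and 0.161 in MigRI, and 0.391 in the Klf4 cKO-labelled library and 0.130 in Control (WT). Per C1qa TPM the Hmox1 ratio was 0.555 in Klf4 and 0.290 in MigRI, and 0.192 in the Klf4 cKO-labelled library and 0.0516 in Control (WT). For Slc11a1 the markers gave different answers. Per Cd68 TPM it had 0.0871 in Klf4 and 0.0392 in MigRI, and 0.0402 in the Klf4 cKO-labelled library and 0.0464 in Control (WT). Per C1qa TPM it had 0.0672 in Klf4 and 0.0706 in MigRI, and 0.0197 in the Klf4 cKO-labelled library and 0.0184 in Control (WT). Fth1 per Cd68 TPM was 46.3 in Klf4 and 76.7 in MigRI, and 129 in the Klf4 cKO-labelled library and 180 in Control (WT), and per Trac TPM it was 40.9 in Klf4 and 3.89 in MigRI, and 3.45 in the Klf4 cKO-labelled library and 4.91 in Control (WT). The part that macrophage RNA has in the level of any member was not tested.

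**Figure D4:**
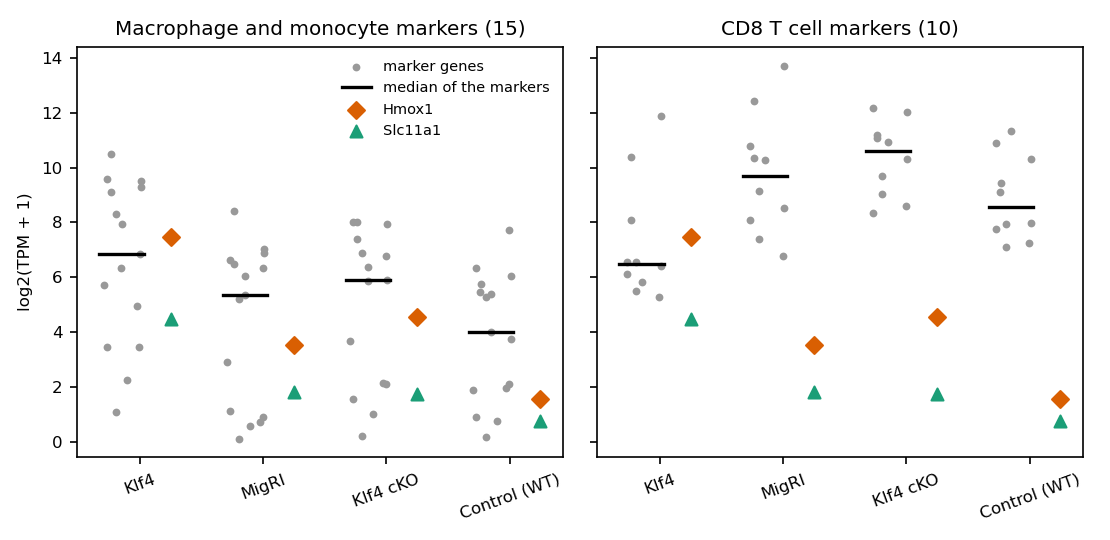
Level as log2(TPM + 1) of the 15 macrophage and monocyte markers (left) and the 10 CD8 T cell markers (right) in each library as grey points with their median (black line), beside Hmox1 (diamonds) and Slc11a1 (triangles). Summed, the 14 measured macrophage markers reach 4932 TPM in Klf4, 1008 in MigRI, 1368 in the Klf4 cKO-labelled library and 565 in Control (WT). Within each experiment Hmox1 and Slc11a1 stand higher in the library with the higher sum, and so do Fth1 and Tfrc, which are not drawn.

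The markers of other cells were followed as well. Hemoglobin mRNA was present in the first experiment, with Hba-a1 at 270.0 TPM in Klf4 and 388 TPM in MigRI, Hba-a2 at 237 and 328 TPM and Hbb-bs at 173 and 157 TPM. In the second experiment these 3 genes lay between 0.511 and 3.17 TPM. The 5 measured red cell and erythroid markers (of 8) summed to 789 TPM in Klf4 and 974 TPM in MigRI, and to 3.41 TPM in the Klf4 cKO-labelled library and 7.35 TPM in Control (WT), while the erythroid membrane gene Slc4a1 was listed at 0 in all 4 libraries. The 8 measured fibroblast and endothelial markers (of 9) summed to 1389 TPM in Klf4 and 145 TPM in MigRI, and to 252 TPM in the Klf4 cKO-labelled library and 30.4 TPM in Control (WT). Sparc led them, a matrix glycoprotein, with 821, 89.3, 186 and 18.4 TPM in the same order, followed by the matrix genes Dcn (302, 31.1, 33.99 and 1.71 TPM) and Col3a1 (116, 8.94, 16.4 and 5.00 TPM). The 4 measured neutrophil markers (of 6) summed to 105 TPM in Klf4 and 28.1 TPM in MigRI, and to 3.37 TPM in the Klf4 cKO-labelled library and 29.3 TPM in Control (WT), and S100a8 led them with 50.9, 18.0, 2.44 and 18.1 TPM. Of the 4 tumour epithelium markers, 0 were measured.

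The rest of the pathway was followed in 7 lists with 104 further genes, of which 5 stand on 2 lists. A gene listed at 0 in either library of a comparison was left out of the list counts and medians of that comparison. Among all measured genes, 43.7% were higher and 10.3% lower in Klf4 than in MigRI (21.4% and 23.6% relative). For the Klf4 cKO-labelled library over Control (WT), 38.4% were higher and 6.92% lower (12.4% and 16.2% relative). These shares keep the genes listed at 0. Each list count stands beside them as a description, and a departure of any list from them was not tested. Iron sensing and ferritin turnover came first. Of 10 measured genes, 7 were higher in Klf4 than in MigRI and 0 lower (median 1.49; 2 higher and 0 lower once the median is taken off), and 6 were higher and 0 lower in the Klf4 cKO-labelled library than in Control (WT) (median 1.25; 1 and 0 relative). Nfe2l2, which encodes the oxidative stress factor Nrf2 that drives Hmox1 and both ferritin chains, had 50.7 TPM in Klf4 and 8.61 TPM in MigRI, a relative difference of 1.63. Hfe, a partner of the transferrin receptor, had 9.70 TPM in Klf4 and 1.16 TPM in MigRI. Fbxl5, which marks iron regulatory protein 2 for breakdown when iron is plentiful, had 28.5 TPM in Klf4 and 7.57 TPM in MigRI, and 10.03 TPM in the Klf4 cKO-labelled library and 1.77 TPM in Control (WT). Ncoa4, the receptor that takes ferritin to the lysosome, had 5.07 TPM in the Klf4 cKO-labelled library and 0.834 TPM in Control (WT).

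The genes of iron uptake, reduction and export were mostly too low to measure, with 6 of 15 measured. All 6 were higher in Klf4 than in MigRI, as deposited (median 2.30) and relative to the median gene (median 1.51), and 1 of them, Steap1, was higher in the Klf4 cKO-labelled library than in Control (WT). Steap1, a membrane protein of the metalloreductase family, had 199 TPM in Klf4 and 26.9 TPM in MigRI, and 15.5 TPM in the Klf4 cKO-labelled library and 3.27 TPM in Control (WT). Steap3, the endosomal ferrireductase that works ahead of DMT1, had 13.8 TPM in Klf4 and 1.19 TPM in MigRI. Slc39a14, a transporter of iron not bound to transferrin, had 9.97 TPM in Klf4 and 1.16 TPM in MigRI, and Trf, transferrin itself, had 11.2 TPM in Klf4 and 1.55 TPM in MigRI.

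Heme synthesis genes went in both directions in the first experiment. Of 10 measured genes, 7 were higher and 1 lower in Klf4 than in MigRI (median 1.40, with 4 higher and 1 lower relative). In the second experiment 9 were above 0 in both libraries. Of those, 5 were higher and 0 lower in the Klf4 cKO-labelled library than in Control (WT) (median 1.39, with 2 and 0 relative). Alas1, the rate-limiting enzyme outside red cell precursors, had 50.2 TPM in Klf4 and 6.06 TPM in MigRI. Fech, which puts iron into the ring, had 26.8 TPM in Klf4 and 3.63 TPM in MigRI. Alad, the second enzyme of the path, went the other way in the first experiment, with 42.6 TPM in Klf4 and 118 TPM in MigRI, but had 22.4 TPM in the Klf4 cKO-labelled library and 5.97 TPM in Control (WT). Urod, a later enzyme, had 58.0 TPM in the Klf4 cKO-labelled library and 14.7 TPM in Control (WT).

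Downstream of Hmox1, 9 genes of heme breakdown and transport were measured. Of these, 7 were higher and 0 lower in Klf4 than in MigRI (median 1.34, with 2 higher and 1 lower relative). In the second experiment 7 were above 0 in both libraries. Of those, 4 were higher and 0 lower in the Klf4 cKO-labelled library than in Control (WT) (median 1.32, with 1 and 0 relative). Blvra, a biliverdin reductase that takes up the product of heme oxygenase, had 88.3 TPM in Klf4 and 162 TPM in MigRI, a relative difference of -1.66, and 89.8 TPM in the Klf4 cKO-labelled library and 17.8 TPM in Control (WT), a relative difference of 1.53. Blvrb, the other biliverdin reductase, had 179 TPM in Klf4 and 57.2 TPM in MigRI. The heme transporter Slc48a1 had 52.7 TPM in Klf4 and 8.80 TPM in MigRI, and 18.7 TPM in the Klf4 cKO-labelled library and 5.13 TPM in Control (WT). Hmox2, the constitutive heme oxygenase, had 54.6 TPM in the Klf4 cKO-labelled library and 21.3 TPM in Control (WT), a relative difference of 0.58 beside 2.25 for Hmox1.

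Mitochondrial iron and iron-sulfur cluster genes were the list with most lower genes in the first experiment. Of 19 measured genes, 6 were higher and 4 lower in Klf4 than in MigRI (median -0.10), and relative to the median gene 3 were higher and 9 lower (median -0.90). Fdx1, a ferredoxin that passes electrons to cluster assembly and steroid enzymes, had 52.7 TPM in Klf4 and 188 TPM in MigRI. The cochaperone Hscb had 31.98 TPM in Klf4 and 84.7 TPM in MigRI. Bola3, which helps to hand clusters on and whose 3′ UTR also held a match to the hairpin search, had 37.5 TPM in Klf4 and 120 TPM in MigRI, and 66.0 TPM in the Klf4 cKO-labelled library and 123.3 TPM in Control (WT). The other gene of the lists with a match was Alas2, of heme synthesis, in its 5′ UTR. In the second experiment 7 genes were higher and 0 lower (median 0.90; 1 and 1 relative), with Nfu1, a cluster carrier, at 142 TPM in the Klf4 cKO-labelled library and 43.5 TPM in Control (WT).

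Around Gpx4, 21 genes of glutathione and ferroptosis were measured. Of the 19 above 0 in both libraries, 14 were higher and 0 lower in Klf4 than in MigRI (median 1.52, with 8 and 0 relative). Gpx7, at 0 TPM in Klf4 and 4.21 TPM in MigRI, was among those left out. In the second experiment 20 were counted. Of these, 13 were higher and 0 lower in the Klf4 cKO-labelled library than in Control (WT) (median 1.13, with 6 and 0 relative). Gsr, which regenerates glutathione, had 236 TPM in Klf4 and 22.4 TPM in MigRI, and Gss, which makes it, had 93.3 TPM in Klf4 and 12.9 TPM in MigRI. Chac1, which breaks it down, had 25.1 TPM in Klf4 and 2.41 TPM in MigRI. Gch1, the first enzyme of the antioxidant tetrahydrobiopterin, had 72.7 TPM in the Klf4 cKO-labelled library and 14.7 TPM in Control (WT), and Prdx1, a peroxide-reducing enzyme, had 811 TPM in the Klf4 cKO-labelled library and 202 TPM in Control (WT). Gpx4 itself was not called in either comparison as deposited or relative to the median gene.

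Of 16 measured Nrf2 targets, a list that shares 5 genes with the previous list, 12 were higher and 1 lower in Klf4 than in MigRI (median 1.78, with 8 and 1 relative). In the second experiment 15 were above 0 in both libraries. Of those, 9 were higher and 0 lower in the Klf4 cKO-labelled library than in Control (WT) (median 1.19, with 3 higher and 1 lower relative). Me1, an enzyme that makes NADPH, had 34.5 TPM in Klf4 and 1.41 TPM in MigRI, and G6pdx, the entry enzyme of the pentose phosphate path, had 53.5 TPM in Klf4 and 6.19 TPM in MigRI. Osgin1 had 14.3 TPM in the Klf4 cKO-labelled library and 1.18 TPM in Control (WT), a relative difference of 2.08 close to the 2.25 of Hmox1. Thioredoxin (Txn1) went the other way, with 576 TPM in Klf4 and 1476 TPM in MigRI, and 1151 TPM in the Klf4 cKO-labelled library and 1857 TPM in Control (WT).

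**Figure D5:**
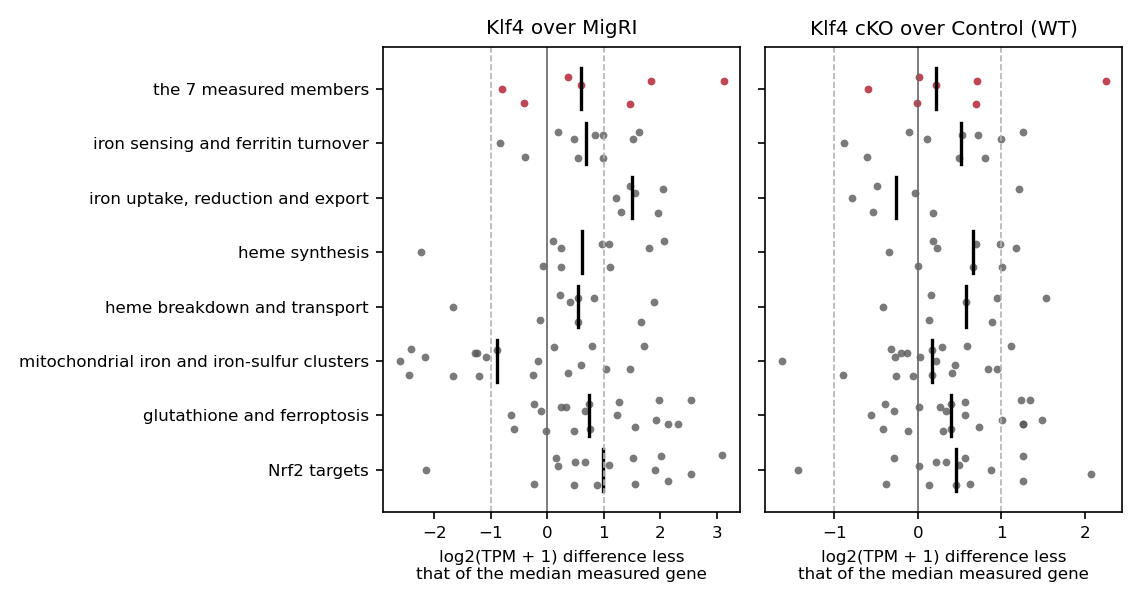
Difference of log2(TPM + 1) less that of the median measured gene, for the 7 measured members (red) and the 7 further lists (grey) in each comparison. There is 1 point per measured gene above 0 in both libraries. Black bars are medians and dashed lines mark 2-fold. The mitochondrial list has its median at -0.90 in Klf4 over MigRI, left of 0, and the member farthest to the right is Hmox1 in both panels (3.13 and 2.25).

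The genes with the most similar pattern over the 4 libraries were sought among 3433 genes averaging 20 TPM or more, by the root mean square distance of their centred log2(TPM + 1) values. For Ftl1 these were Gfer (distance 0.033), Morf4l1 (0.11) and Cnpy2 (0.13). For Fth1 they were Def6 (0.033), Sys1 (0.062) and G3bp2 (0.067). For Hmox1 they were Car9 (0.14), Ier3 (0.14) and Cxcl1 (0.16), which were all highest in Klf4 and lowest in Control (WT). Ier3 had 1365 TPM in Klf4 and 76.7 TPM in MigRI, and 190 TPM in the Klf4 cKO-labelled library and 25.3 TPM in Control (WT). Car9 had 109, 6.89, 11.3 and 0.883 TPM and Cxcl1 had 900, 75.6, 119 and 16.8 TPM in the same order of libraries. With 4 libraries, many genes share any 1 pattern.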

How the data were processed

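Per the labels' protocols, TRI Reagent was used for RNA and the SMART-seq v4 low input kit for cDNA libraries, from 4 samples, 1 per group. The submitters' processing notes name Trimmomatic, HISAT2, StringTie, edgeR and the build mm10; their versions and roles and the annotation were not given in the sources used here. The authors deposited gene-level TPM values, 1 table per library. TPM divides by length and sums to the same total in each library, so abundant short transcripts lower all other values, and without depth the counting error is unknown. Strand is not marked by this kit, so overlapping genes cannot be told apart.

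Each table had 45777 entries. In the table of Control (WT), 26 symbols had become calendar dates; those that could be restored by name were, and 4 were left out, leaving 45773 genes. Differences of log2(TPM + 1), with a pseudocount of 1, were computed within each experiment (Python 3.11.15, pandas 2.3.3, numpy 2.4.6, matplotlib 3.10.9), after the calculation was tested on simulated data. Measured genes had a mean of at least 1 TPM, and 2-fold differences were called. Gene places, elements and shared 50-base stretches come from GENCODE M21. All 8 members are named, and of the other iron lists up to 4 measured genes with the largest relative difference in each comparison, of each marker list up to 3 of the highest by mean TPM, and the 3 nearest genes in pattern for Ftl1, Fth1 and Hmox1. Cd68, C1qa, Trac, Slc4a1, Gpx7, Alas2 and the copies were added for comparison. Members and lists were chosen with earlier results of these data known. Some genes that the naming rule covers are not reported here.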

Additional observations from a re-analysis of the deposited data

How the results depend on the processing

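No paired analysis was possible because each group has 1 library and the labels give no replicate numbers; for the same reason no library could be left out. Each member difference was recomputed under 14 alternatives, 2 of them (the macrophage marker scale and Gpx4 summed with its copy) chosen after seeing the data. Of 196 values over both comparisons, 137 kept direction and call, 19 stayed uncalled but crossed 0, 18 lost the call, 15 gained a call (7 of them on the other side of 0) and 7 turned the direction of a called value. The settings that summed the ferritin chains or Gpx4 with their copies could change only those genes. Their values for the other members were fixed beforehand and count among the 137. Against the macrophage marker median, Klf4 over MigRI gave -1.30 for Fth1, -1.06 for Tfrc and -0.19 for Slc11a2, with 1 gene higher and 4 lower; the Klf4 cKO-labelled library over Control (WT) gave -0.18 for Fth1 and -0.20 for Tfrc, with 1 higher and 1 lower. Against Trac, Trbc1 and Trbc2 the second comparison gave -0.31 for Fth1 and -0.32 for Tfrc, with 1 higher and 3 lower. In the first comparison 3 genes were higher, not 5, relative to the median measured gene, to the median gene of at least 10 TPM and by median of ratios scaling, which also made 1 (Gpx4) lower. In the second, those 3 scales left 1 gene higher (Hmox1), the 10 TPM scale made 1 lower (Ftl1), and a pseudocount of 0.1 gave 5 higher. The Ftl1 to Fth1 ratio change turned to 0.16 for Klf4 over MigRI under quantile normalization. Uncalled values also crossed 0: Ftl1 was above 0 under 10 of 14 alternatives in the first comparison and 7 of 14 in the second.

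With the 50 highest genes left out and ferritin kept, Ftl1 ranked 1 in MigRI, 2 in the Klf4 cKO-labelled library and 1 in Control (WT), and Fth1 ranked 3, 1 and 21 in the same order; with copies added, Ftl1 ranked 6 in the Klf4 cKO-labelled library. These ranks follow from the genes removed or summed; the cause of the other changes was not tested. Depth is unknown, so how far low values such as those of Slc40a1 are limited by it cannot be given.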
